A study of Mus musculus with 18 samples.

Results

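Differential H3.3 sites were examined in 6 genes that encode chromatin remodellers and transcription regulators, namely Arid1a, Smarca4, Btaf1, Kmt2e, Zeb1 and Fli1, in the mouse nucleus accumbens. The members were chosen as genes that carry a gene body or promoter site in at least 1 of 2 lists of differential sites deposited by the authors, so their presence in the lists is a description and is not tested. Together they held 11 of the 2300 listed sites, 7 of 1286 in the list for susceptible mice and 4 of 1014 in the list for acute stress. Of the 11, 10 lay in gene bodies and 1 at a promoter. Arid1a, Smarca4, Kmt2e and Zeb1 had sites in the susceptible list alone, and Btaf1 and Fli1 had sites in both lists.

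Chromatin immunoprecipitation with sequencing (ChIP-seq) for the histone variant H3.3 was carried out on crosslinked accumbens tissue of C57Bl/6J mice. Control mice came straight from the home cage. The acute stress group had a 5 min aggressive encounter and then 55 min of housing beside the aggressor. The susceptible group had been through chronic social defeat, had been classed as susceptible by a social interaction test at 48 h, and then met that same stress again. Tissue was taken 28 days after the last defeat. There were 3 ChIP libraries and 3 Input libraries for every condition, and a library pooled both accumbens of 5 animals, so a library averages animals and no value of a single animal exists. No genotype, age or sex is given in the labels, and no susceptible group without renewed stress is among the samples, so earlier defeat and renewed stress cannot be told apart.

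At each listed site, counts scaled for depth stand for 3 susceptible and 2 control libraries in one list, and for 2 acute stress and 2 control libraries in the other. The labels give 3 ChIP libraries for each condition, so not every control and acute stress library has values. The sources used here do not say why. Both lists use the control condition as reference, and a site that appears in both is therefore not seen in independent controls. A single read was worth between 0.534 and 1.63 normalised counts in the susceptible list and between 0.657 and 1.43 in the acute list. The 11 member sites rested on 35 to 126 reads each, summed over libraries. Library values are named by their position in the list, since the lists do not tie a position to a labelled sample. Tissue was not sorted, so fewer cells carrying H3.3 at a site and less H3.3 per cell cannot be told apart.

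H3.3 is the form of histone H3 that is laid down outside DNA replication, and in neurons, which no longer divide, it is the form that can be exchanged throughout life. Nucleosomes that hold it are replaced often at promoters and transcribed genes. SWI/SNF, also called BAF in mammals, is a complex that slides and evicts nucleosomes with the energy of ATP. Smarca4 (BRG1) is an ATPase of this complex and Arid1a is its large DNA-binding subunit. Btaf1 encodes a SNF2-type ATPase, related in its motor domain to Smarca4, that takes TATA-binding protein off DNA. Kmt2e encodes a divergent member of the KMT2 family with a PHD finger and a SET domain. Zeb1 encodes a zinc finger and homeodomain repressor that binds E-boxes, and Fli1 an ETS family activator known from endothelial and blood cells.

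Btaf1 was the only member with a site of a promoter class, so the 250 bases upstream of that start (GRCm38.p6, chr19:36925829-36926078, plus strand, from RefSeq) are shown to place it. The site itself began 547 bp and ended 871 bp downstream of the start, outside the printed stretch. Capitals mark TGACGTCA, the palindromic cyclic AMP response element.
Btaf1 upstream 250 bases: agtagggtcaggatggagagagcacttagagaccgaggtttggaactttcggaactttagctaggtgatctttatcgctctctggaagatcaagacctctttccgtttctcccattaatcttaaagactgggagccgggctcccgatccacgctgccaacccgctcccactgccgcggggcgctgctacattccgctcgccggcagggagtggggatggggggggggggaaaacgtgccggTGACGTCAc
This element lay from 9 to 2 bases before the start, and 1.55% of 32851 RefSeq promoter windows of the same length hold it on either strand. The stretch held none of TATAAA (12.4% of windows), CCGGAAGT, a site of ETS factors (2.88%), or CACCTG, an E-box that ZEB factors can bind (17.2%), each searched on both strands. It held 17 CpG dinucleotides and 58.4% G or C, against medians of 6 and 52.4% over all windows. RefSeq windows were also matched for Smarca4, with 25 CpG, and for 2 starts of Arid1a, with 18 and 33 CpG. None of these windows held any of the 4 motifs. A further match to the ETS letters, on the minus strand, crossed the Btaf1 start, with 2 bases before it and 6 after, and shared the last base of the cyclic AMP element. It is outside the share given for ETS sites, which covers the upstream bases only. The motifs were picked with the Btaf1 sequence in view, and the matches are descriptions.

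**Figure D1:**
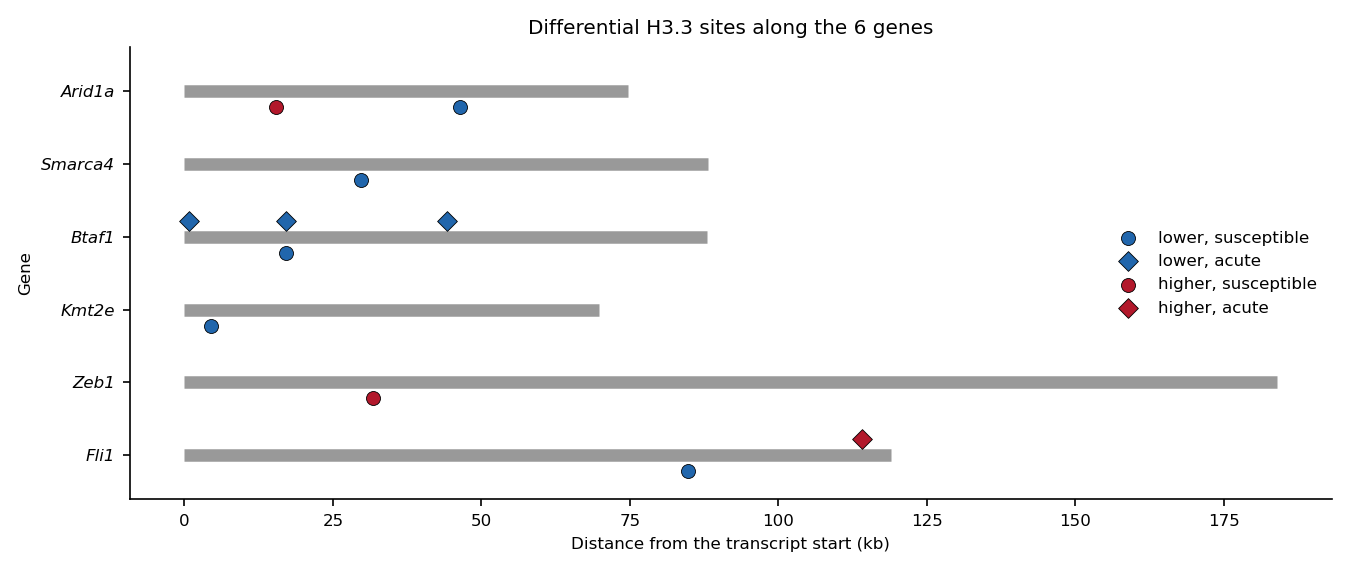
Differential H3.3 sites along the 6 genes, drawn as grey bars from the transcript start (kb, horizontal axis). Circles under a bar are sites of the susceptible list, diamonds above it are sites of the acute list, blue is lower and red is higher than control. The 3 acute lower sites and the 1 susceptible lower site of Btaf1 sit in its first 44.2 kb, and the Fli1 higher site lies near the far end of its gene.

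In susceptible mice that met the stressor again, 5 members carried a lower site and 2 carried a higher site. The lower sites were in Arid1a, Smarca4, Btaf1, Kmt2e and Fli1, and the higher sites were in Arid1a and Zeb1. Over the whole list, 97.6% of sites were lower and 2.41% were higher. The members were chosen from this list, so nothing is read from their own split. The median log2 fold change in the authors' deposited table was -2.23 at the 5 lower member sites and -2.42 at all 1255 lower sites. At the 2 higher member sites it was 2.30, against 1.99 at all 31 higher sites. The library values of the groups did not overlap at any of the 7 member sites. Over the whole list, 97.6% of sites were lower without overlap and 2.18% were higher without overlap. That is all 1255 lower sites and 28 of the 31 higher sites.

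Arid1a carried a site in each direction, and the 2 sites lay 30.8 kb apart in a transcript of 74.6 kb. Of the 635 genes with a genic site in the susceptible list, 4 held both directions. The higher site lay 15.3 kb into the transcript, 20.6% of its length (mm10, chromosome 4, 133738101 to 133738450, gene body). The susceptible libraries held 13.0, 17.4 and 13.2 normalised counts there, from 8, 21 and 9 reads. The control libraries held 0.92 and 3.74, from 1 and 7 reads. Every susceptible library was thus above both controls, with the nearest values 9.28 normalised counts apart. The means were 14.5 ± 2.46 (SD, n = 3) and 2.33 ± 1.99 (SD, n = 2). The pooled reads per unit of depth were 5.62-fold higher in susceptible mice, with an exact 95% counting interval of 2.58 to 13.9.

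The lower Arid1a site lay 46.4 kb from the start, 62.2% along the transcript (chromosome 4, 133707101 to 133707350, gene body). Susceptible libraries held 1.63, 1.66 and 1.47 normalised counts, which are 1, 2 and 1 reads. Control libraries held 10.1 and 10.7, from 11 and 20 reads. The susceptible libraries were all low and nearly equal, and the means of 1.59 ± 0.102 (SD, n = 3) and 10.4 ± 0.417 (SD, n = 2) were far apart. Pooled reads were 6.55-fold lower, with an exact 95% counting interval of 2.32 to 25.5. At this lower site the susceptible level was 0.635 normalised counts per 100 bp, and at the higher site it was 4.15. In controls the order was the reverse, 4.15 per 100 bp at the lower site and 0.666 at the higher one. Without the second control library the log2 fold change of the higher site was 3.98, and without the first it was 1.96.

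The authors' deposited table also gives an enrichment ratio per group, and the sources used here do not state its denominator. At the higher Arid1a site the ratio in the authors' deposited table was 0.77 in susceptible mice and 0.12 in controls, both under 1. The group means divided by these ratios gave denominators of 18.9 in susceptible mice and 19.4 in controls. At other sites of this list these differed more, with 5.99 and 11.2 at Smarca4, 12.7 and 19.9 at Zeb1, and 9.78 and 26.0 at Btaf1. At the lower Arid1a site the ratio in the authors' deposited table was 2.16 in susceptible mice and infinite in controls. An infinite ratio stood for controls at 60.3% of all lower sites of this list, so the ratio gives no size there.

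Smarca4, the partner ATPase of Arid1a in SWI/SNF, had a single lower site 29.7 kb from the start, 33.7% along its 88.1 kb (chromosome 9, 21645651 to 21646050, gene body). Susceptible libraries held 6.51, 3.31 and 2.94 normalised counts, from 4, 4 and 2 reads. Control libraries held 14.7 and 16.0, from 16 and 30 reads. The first susceptible library was the highest of its group but still 8.17 normalised counts under the lower control. The means were 4.25 ± 1.96 (SD, n = 3) and 15.3 ± 0.948 (SD, n = 2), and pooled reads were 3.89-fold lower (exact 95% counting interval 1.93 to 8.64). The ratio in the authors' deposited table was 0.71 in susceptible mice and 1.37 in controls, the same direction as the counts.

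Kmt2e had a lower site close to its start, at 4.47 kb and 6.41% of a 69.8 kb transcript (chromosome 5, 23438751 to 23439050, gene body). Susceptible libraries held 3.26, 1.66 and 2.94 normalised counts, 2 reads each. Control libraries held 12.8 and 11.8, from 14 and 22 reads. The groups were 8.49 normalised counts apart at their nearest values. The means were 2.62 ± 0.847 (SD, n = 3) and 12.3 ± 0.778 (SD, n = 2), a 5.07-fold lower value in pooled reads (exact 95% counting interval 2.12 to 14.7). The ratio in the authors' deposited table was 0.5 in susceptible mice and infinite in controls.

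Zeb1, the E-box repressor, carried the other higher site, 31.7 kb from the start and 17.2% along the 184 kb gene (chromosome 18, 5623301 to 5623750, gene body). Susceptible libraries held 21.2, 18.2 and 16.1 normalised counts, from 13, 22 and 11 reads. Control libraries held 3.67 and 5.87, from 4 and 11 reads. All susceptible libraries were high, and the nearest values of the groups were 10.3 apart. Pooled reads were 3.63-fold higher (exact 95% counting interval 1.99 to 7.0). The ratio in the authors' deposited table was 1.46 in susceptible mice and 0.24 in controls. Zeb1 and the higher Arid1a site ranked 8th and 6th by p among the 31 higher sites in the authors' deposited table.

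**Figure D2:**
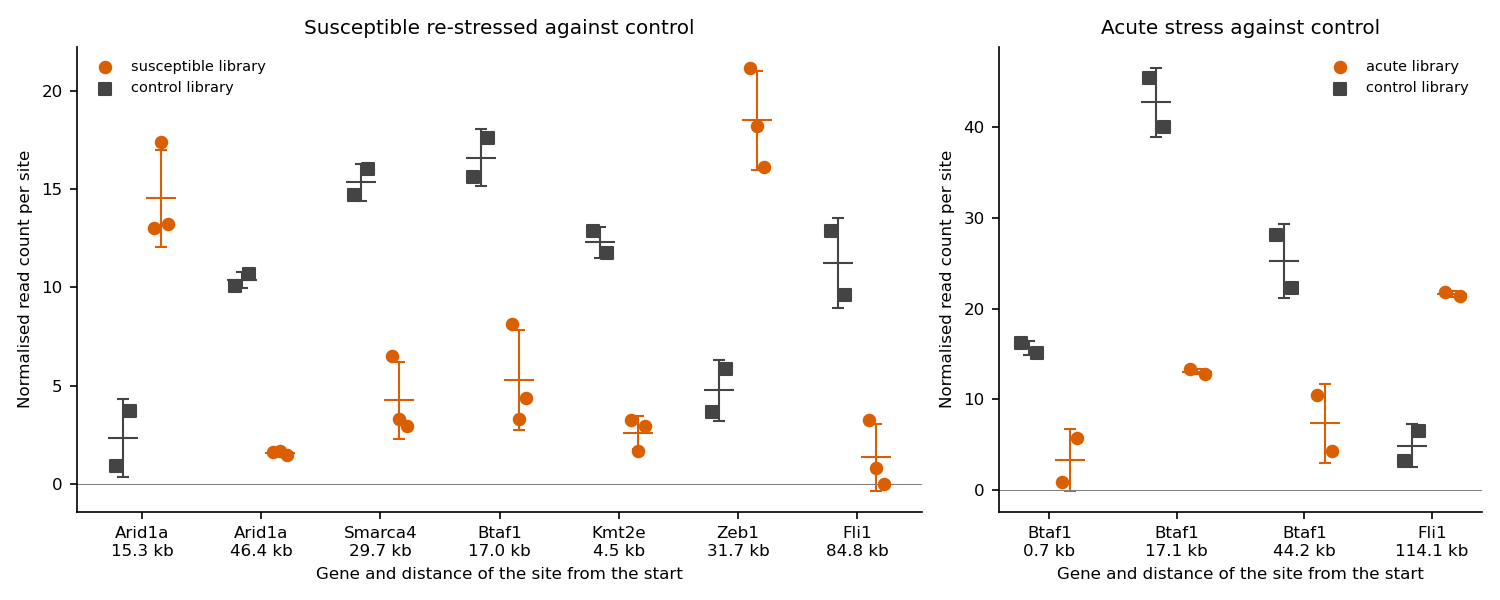
Normalised counts of reads in each library at the 11 member sites (vertical axis), by gene and distance from the start (horizontal axis). Circles are stress libraries, squares are control libraries, and bars show the mean and SD of 3 susceptible, 2 acute stress or 2 control libraries. The circles and squares do not overlap at any of the 11 sites, and the Btaf1 site at 17.1 kb stands highest with control values of 45.4 and 40.1.

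Btaf1 was lower at 3 sites after acute stress, and 1 of these was lower in susceptible mice as well. In the acute list, 46.6% of sites were lower and 53.4% higher, and 4 of its 502 genes with a genic site held 3 or more. In the authors' deposited table the median log2 fold change was -1.77 at the 3 Btaf1 sites and -2.64 at all 473 lower sites. The promoter site lay 709 bp from the start by its midpoint (chromosome 19, 36926626 to 36926950, within 1 kb of the start by the authors' class). Acute stress libraries held 0.95 and 5.72 normalised counts there, from 1 and 4 reads, and control libraries 16.2 and 15.1, from 15 and 23 reads. The acute libraries differed from each other but both lay under the controls, 9.39 apart at the nearest. Pooled reads were 5.44-fold lower (exact 95% counting interval 2.14 to 17.7). The log2 fold change was -4.04 without the second acute library and -1.45 without the first. The ratio in the authors' deposited table was 0.22 after acute stress and 1.5 in controls.

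The middle Btaf1 site, 17.1 kb from the start, was the longest of all 1014 acute sites at 650 bp (chromosome 19, 36942901 to 36943550, gene body). Acute libraries held 13.3 and 12.9 normalised counts, from 14 and 9 reads, and control libraries 45.4 and 40.1, from 42 and 61 reads. Replicates lay close together in both groups, and the groups were 26.8 apart. Pooled reads were 3.21-fold lower (exact 95% counting interval 2.02 to 5.28), the narrowest of the 11 intervals. The site farthest in lay at 44.2 kb, 50.3% along the transcript (chromosome 19, 36970151 to 36970500, gene body). It held 10.5 and 4.29 in the acute libraries, from 11 and 3 reads, and 28.1 and 22.3 in controls, from 26 and 34 reads. The values did not overlap, and pooled reads were 3.07-fold lower (exact 95% counting interval 1.69 to 5.95). Without the second acute library the log2 fold change at this site was -1.27, and without the first it was -2.56. With a p of 8.61e-05 in the authors' deposited table it lay just inside their threshold of 0.0001, and sites just outside it are not listed. Over the acute list, 46.6% of sites were lower without overlap of libraries, which is all 473 lower sites. Lack of overlap therefore sets no Btaf1 site apart.

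The 250 bp that the susceptible list gives for Btaf1 (chromosome 19, 36942976 to 36943225) are exactly the best window inside the 650 bp acute site. Susceptible libraries held 8.14, 3.31 and 4.40 normalised counts, from 5, 4 and 3 reads, and control libraries 15.6 and 17.6, from 17 and 33 reads. The susceptible libraries all lay below both controls, with 7.46 between the nearest. Pooled reads were 3.52-fold lower (exact 95% counting interval 1.85 to 7.26). For these same bases the authors' deposited table gives a log2 fold change of -1.65 in susceptible mice with a p of 2.15e-05. The authors' deposited table gives -1.94 after acute stress with a p of 5.29e-05. Both values use the control libraries as reference, and their difference was not tested.

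Per length, Btaf1 stood apart from the other lower sites in its control level. Controls held 6.64 normalised counts per 100 bp at the susceptible site, where the highest of the other 1254 lower sites reached 5.46 and the median was 4.12. In the acute list controls held 7.21 per 100 bp at the 44.2 kb site and 6.58 at the 17.1 kb site. The highest of the 470 lower sites outside Btaf1 reached 6.36, and the median was 4.99. The stress level was high as well, at 2.11, 2.11 and 2.01 per 100 bp, above the highest other lower site of each list, 1.71 and 1.65. The promoter site, with 4.82 in controls and 1.03 after acute stress, lay within the range of the others. The other member lower sites of the susceptible list lay inside the range of the rest, from 3.84 per 100 bp in controls at Smarca4 to 4.49 at Fli1. Of all sites of that list, 11.4% had a lower control level than Smarca4 and 86.5% a lower one than Fli1. These levels come from the same counts that selected the sites and carry no test.

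The ratio was low at these dense Btaf1 sites. In the authors' deposited table it was 0.54 in susceptible mice against 0.64 in controls, 0.24 after acute stress against 0.62 at 17.1 kb, and 0.5 in both groups at 44.2 kb. Means divided by ratios put the control denominators at 10.4, 10.6 and 14.4 per 100 bp, where the medians over sites with a finite ratio were 4.77 and 5.39. They ranked 49th of 516, 52nd of 427 and 21st of 427 from the highest. The stress denominators at the same sites were 3.91, 8.39 and 4.21 per 100 bp, all lower than in controls. At the susceptible site and at 44.2 kb the denominator was thus lower in stressed mice along with the counts. Over sites with a finite ratio, the median stress denominator was 0.913 per 100 bp in the susceptible list and 3.36 in the acute list. Both are below the control medians, but the medians are not paired by site. The stress medians cover 1154 and 616 sites and the control medians 516 and 427. At Smarca4 and Zeb1 the stress denominator was also below the control one, at 1.5 against 2.8 and 2.82 against 4.42 per 100 bp. A lower stress denominator was thus not particular to the dense Btaf1 sites. At the Btaf1 promoter site it was higher, at 4.66 against 3.21. The Btaf1 stress values lay above the stress medians. The part of this denominator in the count differences was not tested.

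**Figure D3:**
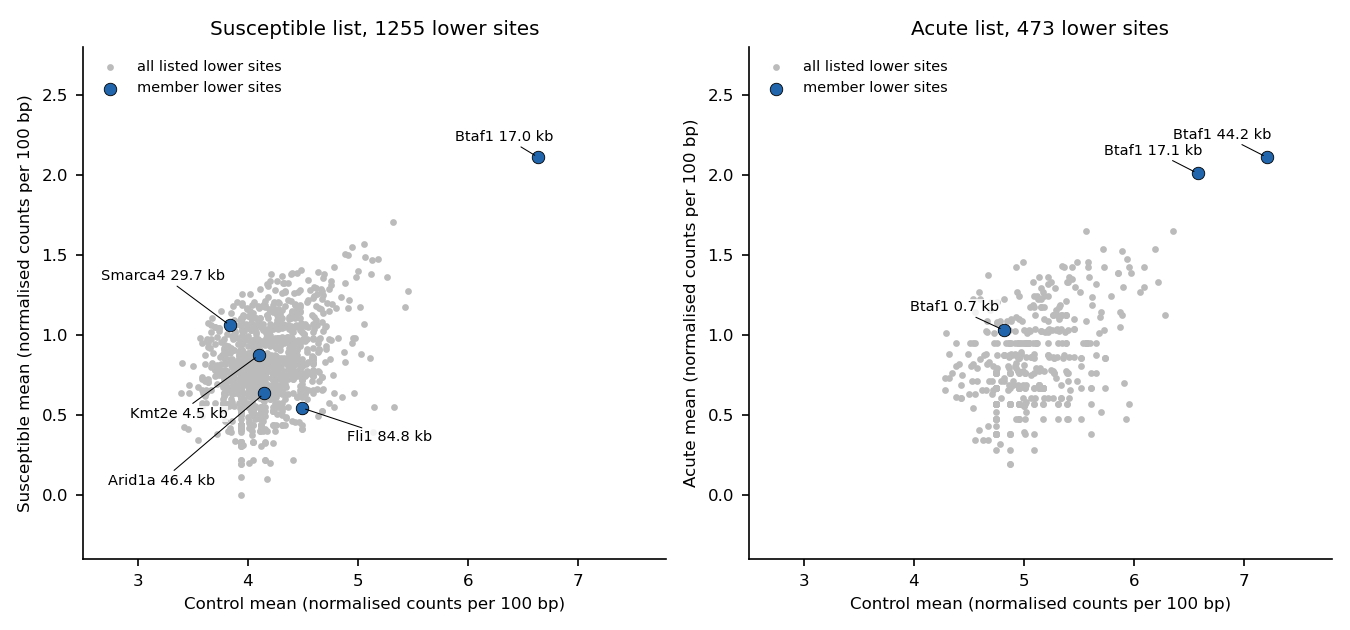
Mean H3.3 level per 100 bp in controls (horizontal axis) and in stressed mice (vertical axis), in normalised counts, at all lower sites of the susceptible list and the acute list. Grey points are single sites and blue points are member sites. The Btaf1 sites at 17.0 kb in the susceptible list and at 17.1 and 44.2 kb in the acute list lie beyond every grey point on both axes, and the other member sites lie inside the cloud.

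The gene next to Btaf1 also carried lower sites in both lists. Cpeb3, which encodes an RNA-binding regulator of translation and runs in the opposite orientation, had a lower site 7.67 kb past Btaf1 in the acute list. Its site in the susceptible list lay 13.1 kb past Btaf1. Acute libraries held 1.90 and 0.00 normalised counts at the first, and controls 16.2 and 12.5. At the second, susceptible libraries held 3.26, 1.66 and 1.47, and controls 11.01 and 10.1. Both lay at the 3' end of Cpeb3, 99.6% and 96.1% along its transcript. Within 1 Mb of the 6 members there were 11 listed sites outside them, and Kmt2e had none. The 6 from the susceptible list were all lower, where 97.6% of that list is lower, and the 5 from the acute list were 3 lower and 2 higher, where 46.6% is lower.

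Fli1 was lower at 1 site in susceptible mice and higher at another after acute stress, 28.9 kb apart. The lower site lay 84.8 kb from the start, 71.1% along the transcript (chromosome 9, 32456526 to 32456775, gene body). Susceptible libraries held 3.26, 0.83 and 0.00 normalised counts, from 2, 1 and 0 reads, and control libraries 12.8 and 9.61, from 14 and 18 reads. The third susceptible library held no read, and all 3 lay below both controls. Pooled reads were 9.01-fold lower, and with 3 susceptible reads the exact 95% counting interval ran from 2.82 to 46.0. Without the first susceptible library the log2 fold change was -4.76 in place of -3.04, and without the third it was -2.46.

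The higher Fli1 site of the acute list lay 114 kb from the start, at 95.7% of the transcript (chromosome 9, 32427101 to 32427575, gene body). Acute libraries held 21.9 and 21.4 normalised counts, from 23 and 15 reads, and control libraries 3.24 and 6.57, from 3 and 10 reads. The acute libraries were nearly equal, and the groups were 14.9 apart. Pooled reads were 4.08-fold higher (exact 95% counting interval 2.13 to 8.35). Without the second control library the log2 fold change was 2.74 in place of 2.14, and without the first it was 1.72. Over the acute list, 53.4% of sites were higher without overlap of libraries, which is all 541 higher sites. The ratio in the authors' deposited table was infinite in both groups at this site, and at the lower site 0.22 in susceptible mice and infinite in controls. Neither Fli1 site is listed in the other comparison, so the directions are not compared at the same bases.

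**Figure D4:**
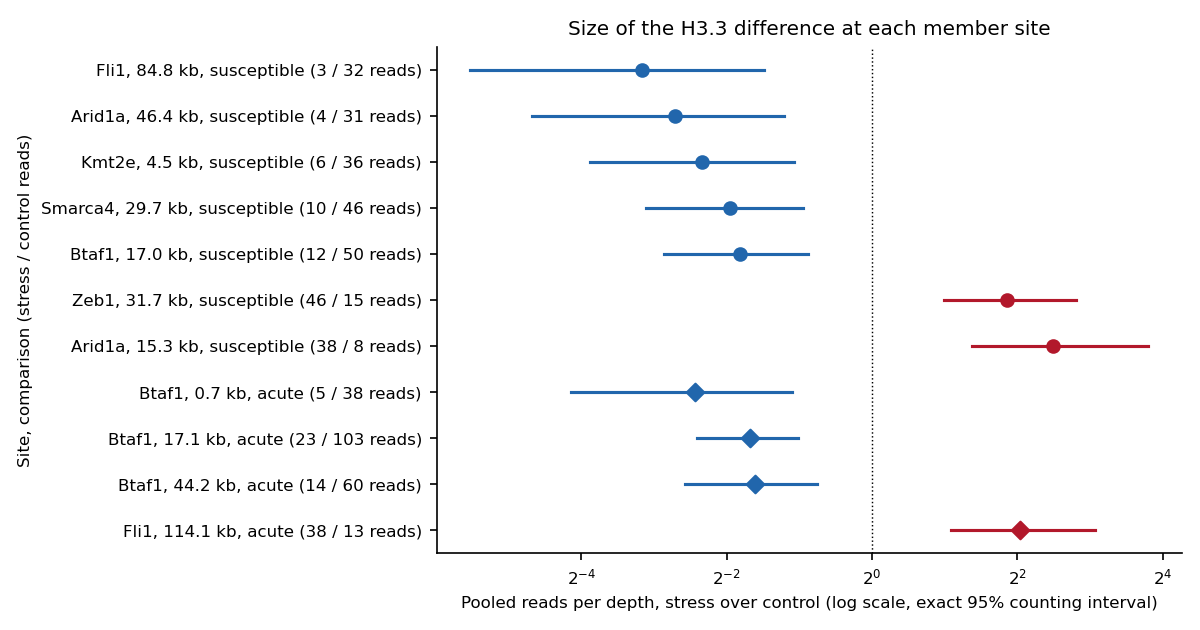
Pooled reads per unit of depth, stress over control (horizontal axis, log scale), at each member site with its exact 95% counting interval. Circles are the susceptible list, diamonds the acute list, blue lower and red higher, and reads of both groups stand beside each name. Every interval lies on 1 side of equality, as the selection of sites requires, and the Fli1 interval with 3 susceptible reads is the widest.

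The recovered reads of all 11 member sites gave a p under 0.0001 in a two-sided exact binomial test, which covers counting error only. The sites had been listed for a p under that same threshold on the same counts, so this outcome was nearly fixed by the selection and is no support for the sites. In the susceptible list 97.1% of sites were lower and passed it, and 2.02% were higher and passed it. In the acute list these shares were 44.8% and 36.2%. Within a direction, 99.5% of the lower and 83.9% of the higher sites of the susceptible list passed it. In the acute list 96.0% of the lower and 67.8% of the higher sites did. Leaving out single libraries took sites past this threshold: 0 of the 5 susceptible lower sites stayed under it without susceptible library 2 or 3, 1 without control library 2, and 0 of the 2 susceptible higher sites without control library 1. In the acute list 1 of 3 lower sites and 0 of 1 higher sites stayed under it without acute library 1 or control library 1. An exact permutation test over libraries, with the smaller tail doubled, cannot go below 0.2 in the susceptible comparison or 0.333 in the acute one and was not used.

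Related genes were counted over 7 lists. These lists held 148 genes (SWI/SNF subunits, other SNF2-type ATPases, KMT2 with its partner subunits, ZEB factors with corepressors, ETS factors, TATA-binding protein with initiation factors, and H3.3 with its chaperones). Of these, 10 genes (6.76%) had a lower site in susceptible mice. Without the 6 members that was 5 of 142 (3.52%), and among all 21887 protein-coding genes it was 2.56%. Genes of the lists were longer, with a median of 32.9 kb against 17.2 kb. Protein-coding genes within the members' own range of length, 71.2 to 184 kb, had a lower site in 6.03%. Higher sites in susceptible mice were found in 2 list genes, both members, and in 0.0822% of all genes and 0.413% of those in the length range. In the acute list 1 list gene, Btaf1, had lower sites (1.09% of all genes, 2.73% in the length range). Higher acute sites were in 2, Fli1 and Zeb2 (1.06% and 2.15%).

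Smarcd2, a smaller SWI/SNF subunit, was the sole addition to Arid1a and Smarca4 among 28 SWI/SNF genes. Its lower site at the promoter held 3.26, 1.66 and 1.47 normalised counts in susceptible mice and 12.8 and 10.7 in controls. Kmt2c, a histone H3 lysine methyltransferase, joined Kmt2e among 20 genes of its list. Its lower site, 95.2% along the transcript, held 4.88, 4.97 and 1.47 in susceptible mice and 15.6 and 15.0 in controls. Of 28 SNF2-type ATPases outside SWI/SNF, Btaf1 was the one with a site in either list. None of the 24 genes for TATA-binding protein, on whose DNA binding Btaf1 acts, and for initiation factors had a site of either direction in either list. The same held for the 12 genes for H3.3 and its chaperones. With 2.56% of all protein-coding genes lower in the susceptible list and a smaller share in each other direction and list, lists of this size can hold none, and nothing is read from these counts.

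Zeb2, the paralogue of Zeb1, was lower in susceptible mice and higher after acute stress, at sites 10.5 kb and 44.7 kb from its start. At the first, susceptible libraries held 1.63, 4.14 and 4.40 normalised counts and controls 14.7 and 12.8. At the second, acute libraries held 15.2 and 15.7 and controls 5.41 and 2.63. Groups did not overlap at either site. Among 26 ETS genes, Etv5 and Spic joined Fli1 with a lower site in susceptible mice. Etv5 held 0.00, 1.66 and 5.87 against 13.8 and 11.2 in controls, and Spic, at its promoter, 4.88, 2.48 and 0.00 against 11.9 and 11.2.

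Markers of cell types were looked up in the same way, since Fli1 marks endothelial cells and microglia. Of 16 endothelial and mural markers, Fli1 and Vwf had a site, that of Vwf being lower in susceptible mice with 0.00, 0.83 and 0.00 normalised counts against 12.8 and 10.1. Of 14 microglia markers, Fli1 was the one with a site. Syt1 among 5 neuronal markers and Aldh1l1 among 6 astrocyte markers had a lower site in susceptible mice, and 6 medium spiny neuron and 5 oligodendrocyte markers had none. Among all protein-coding genes, 2.56% had a lower site in susceptible mice and 1.06% a higher site after acute stress. With marker lists this short, nothing is read from these counts. The lists hold differential sites only, so the labelled tissue could not be checked by marker levels, and the part of cell composition in the Fli1 values was not tested.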

How the data were processed

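Per the labels' protocols, library preparation followed an Illumina TruSeq kit for ChIP. The submitters' processing notes list Bowtie2 2.2.0, SAMtools 0.1.19 and the mm10 build. The authors deposited 2 diffReps lists with 250 bp windows and a p threshold of 0.0001. The sources used here do not give their test, scaling or filters. Per the file headers, they hold normalised counts per library (no fixed unit), mean signal per group, an enrichment ratio per group, a log2 fold change, and a p-value with its adjusted value.

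Members, gene lists and tests were chosen with earlier results of these data known. The rule for named genes was every member site and every list gene with a genic site; Cpeb3 is named as a neighbour. Each library's values were whole multiples of 1 step, which gave whole reads for 99.9% to 100% of values within 0.011. No count model was fitted, as only listed sites have values. Pooled reads were divided by summed depth (1 over the step), with exact Clopper-Pearson 95% intervals, and an exact binomial test, two-sided (sum of outcomes no likelier than that seen), was checked on simulated data and adjusted over each list by Benjamini-Hochberg. Intervals cover counting error only, and SDs cover the spread of pooled libraries. Gene symbols matched RefSeq (GRCm38.p6) for 613 of 635 and 479 of 502 genes. Positions are from the deposited lists; exon and intron positions were not analysed here. Promoter windows were found for Arid1a, Smarca4 and Btaf1. Python 3.11.15, SciPy 1.17.1 and pandas 2.3.3 were used. Alternatives were other p limits, a minimum of 40 reads, added constants and leaving out each library.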

Additional observations from a re-analysis of the deposited data

How the results depend on the processing

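No paired analysis was possible because the lists do not tie library positions to replicate numbers. Of the 5 lower member sites in susceptible mice, 1 had a deposited p under 0.00001, 0 a deposited adjusted p under 0.001 and 3 at least 40 reads. Of the 3 acute lower sites, 1 had a p under 0.00001 and 1 an adjusted p under 0.01. The 3 higher member sites passed these limits. Of the 10 list genes lower in susceptible mice, 1 had a p under 0.00001, and of the 2 higher after acute stress, 1 did.

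The exact binomial test at 0.0001 was rerun without each library. It then passed 0 to 4 of the 5 susceptible lower sites: 4 without the first susceptible or first control library, 1 without the second control library, and 0 without susceptible library 2 or 3, where all 5 were under 0.05. It passed 0 to 2 of the 2 susceptible higher sites, with 0 without the first control library and 1 without the second susceptible or second control library. It passed 1 to 2 of the 3 acute lower sites, with 1 without the first acute or first control library; without the first acute library 2 of the 3 were under 0.05. It passed 0 to 1 for the acute higher site, with 0 without either of those. Fewer reads enter each rerun. Doubling the smaller tail, added after seeing the data, left all 11 sites under 0.0001. Of 84 alternative log2 fold changes of member sites, 0 changed sign and 11 moved by more than the spread between libraries. Library values of stress and control did not overlap at any of the 11 sites. Leaving out a library, adding a constant or pooling reads cannot reverse the sign at such sites. The count of 0 sign changes was therefore fixed beforehand, and nothing is read from it.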
